A study of Mus musculus with 66 samples.

Results

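The mitosis and cyclin genes were taken by symbol from the table of mRNA levels of mouse small intestinal organoids. They comprised the A, B, D and E cyclins, the cell cycle kinases Cdk1, Cdk2, Cdk4 and Cdk6, and the Aurora and Polo kinases. Every gene named Cenp, Ncap, Smc or Bub followed by its own suffix was taken, as were the kinesins of the Kif2, Kif4, Kif11, Kif18, Kif20, Kif22 and Kif23 families and 10 further mitotic genes that included Mki67, Top2a and Cdc20. The rule used names alone and no measured value, and because it read Kif2 with any ending it also took Kif21a and Kif21b, which are not mitotic motors. It found 65 transcripts of 60 gene symbols among the 9481 transcripts of 8978 symbols listed beside 92 spike-in RNAs, and all 65 were among the 9288 transcripts tested. Bub3, Kif21a, Kif23, Mki67 and Top2a were each listed as 2 transcripts.

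Small intestinal organoids are epithelial cultures that grow from crypt stem cells in a gel and form crypt-like buds and villus-like regions. All cultures carried the Lgr5 GFPDTR/+ allele, a green fluorescent protein and diphtheria toxin receptor knock-in at the stem cell marker Lgr5, and all received EGF at 50 ng/mL and Noggin. ENR organoids also received R-Spondin-1, which amplifies Wnt signalling, and held a mixture of epithelial cell types. CV organoids received R-Spondin-1 with 3 µM CHIR99021, an inhibitor of GSK3 that activates Wnt signalling, and 1 mM valproic acid, an inhibitor of histone deacetylases, and were made as a stem cell enriched culture. EN organoids were deprived of R-Spondin-1 and were made as an enterocyte enriched culture. The EN and CV media were applied for different lengths of time, so medium and time cannot be told apart. The protocols name 1 organoid line, and nothing says that the libraries came from separate animals, so the p-values measure the spread between these samples, which may be technical.

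RNA-seq comprised 4 libraries per culture with 5630951 to 8859744 counts each. ATAC-seq, which measures open chromatin, comprised 4 libraries per culture, and ChIPmentation of H3K27ac, H3K4me3 and H3K27me3 comprised 3 libraries per culture and mark. Summed levels of marker genes differed between the cultures. The 5 stem cell markers summed to 236 to 274 TPM in CV, 912 to 996 TPM in ENR and 16.6 to 18.4 TPM in EN. TPM is a transcript's share, after division by its length, of all transcripts in the authors' index, which held those of quantified proteins. All 5 stem cell markers were lower in EN than in CV and ENR. This and the other marker counts are calls of the edgeR test described below, at an adjusted p under 0.01. Over all transcripts tested, 41.2% were lower and 35.2% higher in EN than in CV. Against ENR these shares were 37.2% and 35.5% for EN, and 29.8% and 30.2% for CV. The 6 enterocyte markers summed to 16674 to 17753 TPM in CV, 7568 to 8685 TPM in ENR and 36559 to 43310.0 TPM in EN, and all 6 were higher in EN. Against ENR, CV, the stem cell enriched culture, had 0 stem cell markers higher and 4 of 5 lower, and most of the gap between the sums was Olfm4, with means of 7.04 TPM in CV and 708 TPM in ENR. Of the enterocyte markers 3 were higher and 2 lower in CV than in ENR, and Fabp1, with means of 16366 and 6740 TPM, made up most of both sums. Of the 4 goblet markers, 4 were higher in EN than in CV, with sums of 1561 to 1662 TPM in CV, 2609.6 to 2819 in ENR and 5262 to 6391 in EN. The 4 Paneth markers, 2 higher and 2 lower in EN than in CV, summed to 5797 to 6512 TPM in CV, 14639 to 16063 in ENR and 5174 to 5619.9 in EN, and the 3 enteroendocrine markers, all higher in EN, to 33.5 to 54.6 TPM in CV, 507 to 526 in ENR and 1333 to 1601 in EN. Tuft markers (2 higher and 1 lower of 3) summed to 19.7 to 21.3 TPM in CV, 15.0 to 16.5 in ENR and 25.2 to 32.3 in EN, fibroblast markers (1 higher of 3) to 2.75 to 3.58 TPM in CV, 6.20 to 7.46 in ENR and 15.6 to 19.9 in EN and immune markers (1 higher of 2) to 0.832 to 1.40 TPM in CV, 0.755 to 2.12 in ENR and 0.429 to 1.56 in EN. No marker transcript was at 0 in every library. The part of these cell type differences in the results was not tested. In these bulk samples, fewer dividing cells and less mRNA per dividing cell cannot be told apart.

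Progress through the cell cycle is driven by cyclins, which bind and activate cyclin-dependent kinases. D cyclins with Cdk4 and Cdk6 respond to growth signals in G1 phase, cyclin E with Cdk2 acts at the start of DNA replication, and A and B cyclins with Cdk2 and Cdk1 act later and at entry into mitosis. In mitosis, condensins compact the chromosomes, kinetochores tie them to the spindle, the spindle checkpoint holds back separation until all are attached, and the anaphase-promoting complex then marks cyclin B for destruction. In the intestine the stem and progenitor cells of the crypts divide, while mature enterocytes, goblet cells and Paneth cells do not.

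The promoters of many mitotic genes share short sequence elements. The cell cycle genes homology region, CHR, is bound by the DREAM complex in resting cells and by MuvB complexes with B-Myb or FoxM1 in dividing cells, CCAAT boxes are bound by NF-Y, and E2F sites by E2F factors. RefSeq promoter sequences from build GRCm38.p6, each 300 bases long and running from 250 bases before the start site to 50 bases after it, were matched by symbol for 52 of the 60 genes. A search on both strands for TTTGAA or TTCGAA (CHR), CCAAT, and TTTGGCGC, TTTCGCGC or GGCGGGAA (E2F), none of which overlapped another in these promoters, found a CHR match in 27 of 52 promoters (51.9%), against 19.2% of all 32851 RefSeq mouse promoters of this length. CCAAT matched in 28 (53.8%, against 37.4%), and 12 (23.1%, against 2.31%) held at least 2 CCAAT matches together with CHR. An E2F match was in 6 (11.5%, against 2.96%). Where a member gene had more than 1 promoter listed, the one that shared most bases with its most open ATAC region was taken. The 32851 promoters were not chosen by openness or expression, so the 2 sets were not selected alike.

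The promoters of 4 genes that rank among the central mitotic regulators and of 1 condensin gene with the opposite direction of change are printed 5′ to 3′ in the direction of the gene, with the matches in capitals. A match on the opposite strand reads ATTGG for CCAAT and TTCAAA for TTTGAA. Ccnb2 lies at chr9:70421505-70421804 on the minus strand, Cdk1 at chr10:69352863-69353162 on the minus strand, Cdc20 at chr4:118437294-118437593 on the minus strand, Top2a at chr11:99024140-99024439 on the minus strand and Ncapd3 at chr9:27029915-27030214 on the plus strand.
Ccnb2: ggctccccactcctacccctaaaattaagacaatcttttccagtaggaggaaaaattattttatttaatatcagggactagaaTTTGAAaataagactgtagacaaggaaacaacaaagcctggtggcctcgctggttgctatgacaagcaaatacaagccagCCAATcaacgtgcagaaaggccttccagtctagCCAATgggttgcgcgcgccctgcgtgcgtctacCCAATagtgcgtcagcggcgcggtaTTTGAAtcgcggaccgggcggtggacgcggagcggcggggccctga
Cdk1: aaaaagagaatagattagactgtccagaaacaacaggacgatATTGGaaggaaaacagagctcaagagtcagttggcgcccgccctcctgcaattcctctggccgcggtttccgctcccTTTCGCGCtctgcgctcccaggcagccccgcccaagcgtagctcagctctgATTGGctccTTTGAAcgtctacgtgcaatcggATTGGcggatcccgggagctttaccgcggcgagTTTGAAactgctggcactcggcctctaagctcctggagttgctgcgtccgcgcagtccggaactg
Cdc20: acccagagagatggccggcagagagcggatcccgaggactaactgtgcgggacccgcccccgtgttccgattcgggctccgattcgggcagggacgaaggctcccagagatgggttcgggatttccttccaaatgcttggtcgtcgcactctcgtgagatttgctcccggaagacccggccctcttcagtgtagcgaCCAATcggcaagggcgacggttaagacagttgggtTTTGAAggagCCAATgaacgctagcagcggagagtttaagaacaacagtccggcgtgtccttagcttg
Top2a: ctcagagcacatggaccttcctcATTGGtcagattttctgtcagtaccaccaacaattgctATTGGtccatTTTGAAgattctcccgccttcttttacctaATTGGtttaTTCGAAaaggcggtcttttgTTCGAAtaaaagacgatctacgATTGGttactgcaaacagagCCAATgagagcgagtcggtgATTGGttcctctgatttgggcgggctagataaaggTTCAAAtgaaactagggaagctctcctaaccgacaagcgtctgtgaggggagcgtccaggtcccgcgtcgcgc
Ncapd3: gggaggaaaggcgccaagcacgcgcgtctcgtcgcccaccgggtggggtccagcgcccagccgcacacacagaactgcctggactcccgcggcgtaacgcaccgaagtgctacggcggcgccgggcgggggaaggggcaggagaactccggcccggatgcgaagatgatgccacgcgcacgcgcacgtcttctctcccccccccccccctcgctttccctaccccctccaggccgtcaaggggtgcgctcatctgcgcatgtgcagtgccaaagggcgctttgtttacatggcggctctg
In Ccnb2 the CCAAT matches began 87, 54 and 21 bases before the start site, and CHR matches 167 bases before and 5 bases after it. In Cdk1, CCAAT matches began 208, 80 and 48 bases before the start site and CHR matches 71 and 15 bases before it. The Top2a promoter held 6 CCAAT and 4 CHR matches, and that of Ncapd3 held none of the motifs sought. All 4 regulators printed are among the 12 genes with at least 2 CCAAT matches together with CHR, so they do not represent the group. Promoters of Birc5, Ccne1, Cdk4, Cdk6, Cenpb, Cenpp and Cenpt, with mRNA lower in EN than in CV, also held no match. The same was true of Kif2a, Kif21a, Mad2l1, Ncaph, Nuf2, Smc3 and Smc5, also with lower mRNA in EN. The promoter of Cenpv, with mRNA higher in EN than in CV, held no match either. Among the 31 matched genes whose mRNA was lower in EN than in CV by more than 3 on the log2 scale, 21 promoters held CHR, 20 CCAAT and 6 an E2F match. Of the other 21 matched genes, 6 promoters held CHR, 8 CCAAT and 0 an E2F match. These matches describe the letters in the window and do not show that a site is used.

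The comparison of EN with CV asked how the genes of cell division differed between the enterocyte enriched and the stem cell enriched culture. Of the 65 member transcripts, 62 were lower in EN at an adjusted p under 0.01 by edgeR's quasi-likelihood test, 2 were higher and 1 did not pass. The 2 higher did not pass with scaling to spike-in counts, where 0 members were higher. Over all 9288 transcripts tested, 41.2% were lower and 35.2% were higher. The median member log2 difference EN − CV was -3.47, against -0.08 over all transcripts. In 61 members every EN library lay below every CV library, against 41.6% of all transcripts, and in 2 every EN library lay above, against 34.9%. A difference of at least 8-fold in the fitted value was found for 38 members (58.5%), against 5.05% of all transcripts.

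Compared with ENR, the mixed culture, 59 members were lower in EN, 1 was higher and 5 did not pass, beside 37.2% lower and 35.5% higher over all transcripts. Of the members, 59 lay wholly below and 1 wholly above ENR (37.9% and 36.3% of all). The median member log2 difference EN − ENR was -4.05, against -0.01 over all transcripts. EN and CV were both compared with ENR, so the comparisons share libraries. CV against ENR gave smaller differences, with 49 members lower in CV, 7 higher and 9 that did not pass, beside 29.8% lower and 30.2% higher over all transcripts. The median member log2 difference CV − ENR was -0.58, against -0.01. In 49 members every CV library lay below every ENR library, and in 7 above (32.6% and 33% of all). The CV − ENR counts depended on the scaling. On library sizes set by the spike-in counts 3 members were higher and 32 lower in CV, and on the deposited mRNA copies 5 were higher and 3 lower. In 47 of 65 members (72.3%) the libraries were ordered EN below CV below ENR with no overlap, as they were in 9.24% of all transcripts. The order EN below ENR below CV held for 3 members, and CV below EN below ENR for 1, Ncapd3.

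**Figure D1:**
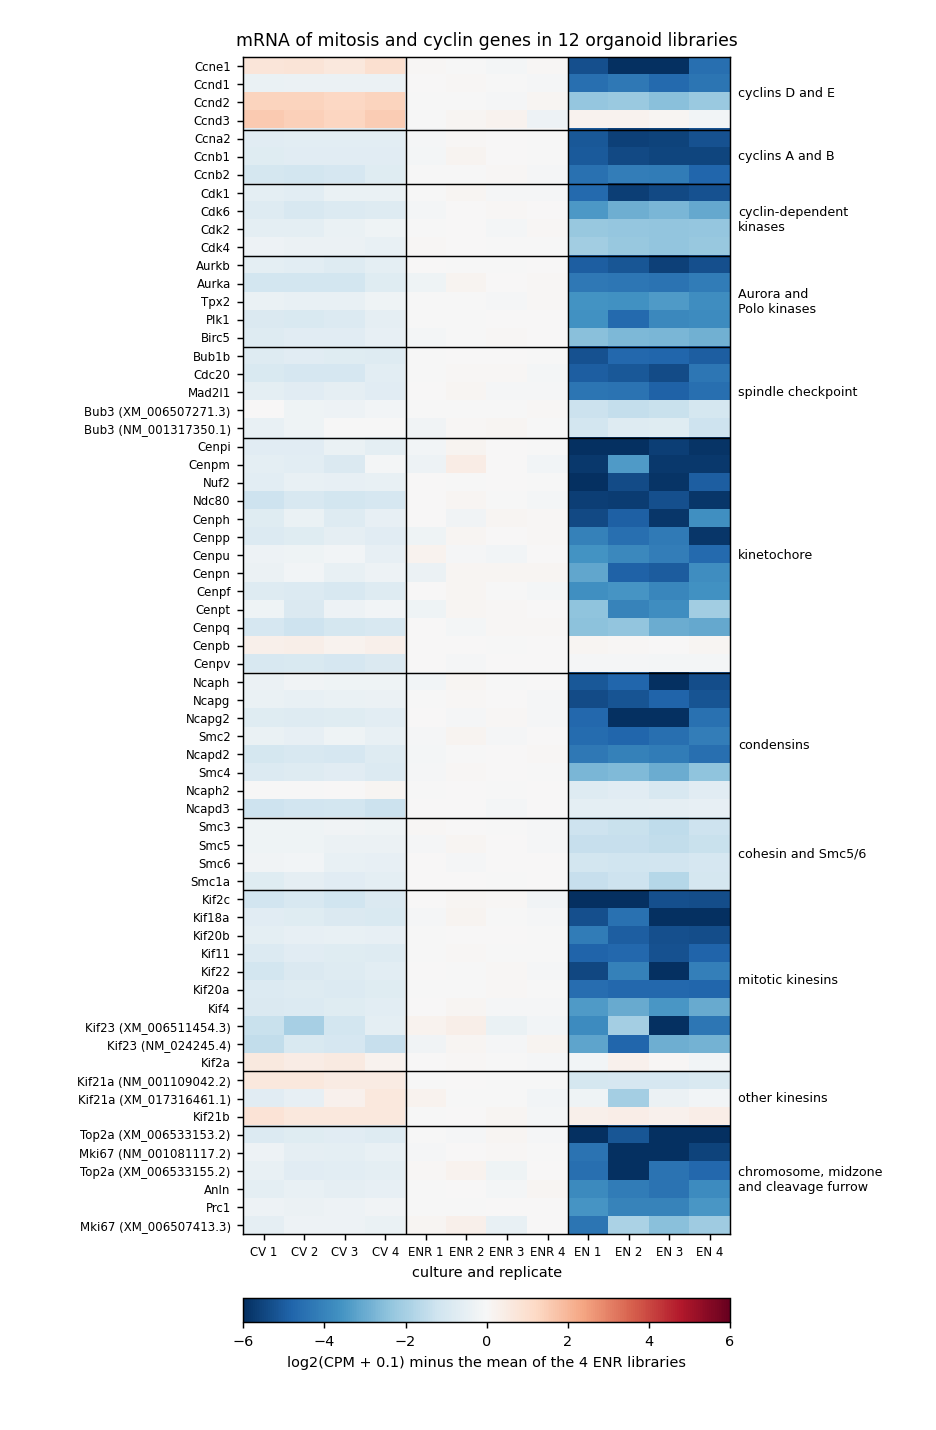
Heat map of 65 member transcripts (vertical axis, grouped by role) in 12 RNA-seq libraries (horizontal axis, 4 per culture). Colour is log2(CPM + 0.1) minus the mean of the 4 ENR libraries. Most transcripts were lower in all 4 EN libraries, and EN and ENR were closest for Kif2a, Cenpb, Ccnd3 and Cenpv.

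In TPM, the members' summed mRNA was ordered EN below CV below ENR, with no overlap between libraries. Summed over members, mRNA was 2305 ± 57.2 TPM in CV, 2799.7 ± 52.9 TPM in ENR and 598 ± 26.6 TPM in EN (mean ± SD, n = 4), or 0.231%, 0.280% and 0.0598% of all TPM. On the scale of the deposited mRNA copies, the sums were 1411 ± 212 in CV, 1789.7 ± 609 in ENR and 816 ± 144 in EN. There the CV libraries (1212 to 1708) and the ENR libraries (1064 to 2548) overlapped. By level per length, Cdk4 was the most abundant member in CV (224 ± 7.53 TPM) and ENR (259.9 ± 7.34 TPM). In EN the most abundant were Cenpv (178 ± 5.28 TPM), a microtubule-binding protein of the centromere region, and Cenpb (113 ± 4.83 TPM), which binds centromeric satellite DNA.

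All 4 D and E cyclins were lower in EN than in CV, and 3 of the 4 were higher in CV than in ENR, with a median log2 difference CV − ENR of 1.04. Ccne1, the cyclin E that partners Cdk2, was 14.8, 15.5, 13.9 and 17.6 CPM in CV, 9.35, 8.84, 8.35 and 9.31 in ENR and 0.134, 0, 0 and 0.288 in EN, where CPM is the count scaled to the TMM-normalised library size. The 4 EN libraries together held 3 Ccne1 counts, and the ratio of CV to EN was 128 (95% counting interval 43.4 to 621) and of ENR to EN 74.0 (95% counting interval 25.05 to 361), with intervals that cover counting error only. The CV libraries lay above the ENR libraries, and the Ccne1 log2 difference CV − ENR was 0.78 ± 0.15 (SE, adjusted p = 2.8e-04).

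Ccnd1, the D cyclin best known as a Wnt and growth factor target, was 125, 127, 129 and 130.4 CPM in CV, 168, 172, 164 and 155 in ENR and 6.97, 8.35, 6.42 and 7.92 in EN. The cultures did not overlap, with EN lowest and ENR highest, and the log2 difference was -4.11 ± 0.07 (SE, adjusted p = 8.9e-17) for EN − CV and -0.37 ± 0.04 (SE, adjusted p = 2.3e-06) for CV − ENR. Ccnd2, a second D cyclin, had levels of 543, 541, 519 and 541 CPM in CV, 211, 214, 209.5 and 236 in ENR and 43.8, 46.9, 38.4 and 46.9 in EN. Here CV was highest, at a log2 difference CV − ENR of 1.30 ± 0.05 (SE, adjusted p = 6.4e-12), while EN − CV was -3.61 ± 0.06 (SE, adjusted p = 8.1e-17). Ccnd3, the third D cyclin, was 22.4, 20.2, 18.3 and 21.7 CPM in CV, 7.30, 8.18, 8.81 and 6.04 in ENR and 8.58, 8.78, 8.21 and 6.77 in EN. Its CV libraries lay above all others, with a CV − ENR log2 difference of 1.45 ± 0.13 (SE, adjusted p = 8.5e-08). EN and ENR overlapped for Ccnd3, and EN − ENR was 0.09 ± 0.14 (SE, adjusted p = 0.55) and turned negative on the spike-in scale and on log2(TPM + 1) and log2(TPM + 5).

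The 3 A and B cyclins fell more evenly, with a median log2 difference of -4.66 for EN − CV and -5.33 for EN − ENR. Ccna2, the A cyclin of S phase and mitotic entry, was 136, 143, 143 and 144 CPM in CV, 212, 232, 227 and 215 in ENR and 6.43, 4.50, 4.64 and 5.90 in EN. EN was the lowest and ENR the highest group without overlap, with EN − CV at -4.68 ± 0.08 (SE, adjusted p = 1.0e-16) and CV − ENR at -0.64 ± 0.05 (SE, adjusted p = 8.6e-09) on the log2 scale. Ccnb1, the main mitotic cyclin, stood at 84.8, 89.0, 89.1 and 87.8 CPM in CV, 132, 157, 143 and 139 in ENR and 4.29, 3.21, 3.03 and 3.02 in EN. Its EN − CV log2 difference was -4.66 ± 0.10 (SE, adjusted p = 1.3e-15). Ccnb2, whose promoter carries 3 CCAAT and 2 CHR matches, had 35.0, 33.8, 36.6 and 44.1 CPM in CV, 72.6, 72.2, 76.7 and 70.6 in ENR and 3.22, 4.07, 3.92 and 2.59 in EN. The EN − CV difference of Ccnb2 was -3.47 ± 0.13 (SE, adjusted p = 9.3e-13) and that of CV − ENR was -0.96 ± 0.08 (SE, adjusted p = 5.3e-08), so each culture stood apart from the others.

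The 4 cyclin-dependent kinases were all lower in EN, with the largest change for Cdk1 and smaller changes for the 3 kinases of G1 and S phase. Cdk1, the kinase that drives mitosis, was 90.7, 87.4, 102 and 103 CPM in CV, 134, 146, 129.7 and 131 in ENR and 5.23, 2.57, 3.03 and 3.46 in EN, and its log2 difference EN − CV was -4.68 ± 0.12 (SE, adjusted p = 2.0e-14). Cdk2, the partner of cyclins E and A, had 24.1, 24.0, 26.8 and 30.0 CPM in CV, 35.6, 36.5, 33.3 and 38.3 in ENR and 7.37, 7.07, 6.96 and 7.05 in EN. EN was again lowest in every library, with a log2 difference to CV of -1.88 ± 0.10 (SE, adjusted p = 6.1e-11). Cdk4, a partner of D cyclins, was 175, 172, 168 and 159 CPM in CV, 227, 217, 211 and 214 in ENR and 51.3, 45.2, 42.3 and 44.8 in EN. It stayed the most abundant of the 4 kinases in EN at 48.9 ± 4.72 TPM, although its EN − CV log2 difference was -1.87 ± 0.06 (SE, adjusted p = 7.3e-14). Cdk6, the other D cyclin partner, was 45.3, 40.3, 44.1 and 46.0 CPM in CV, 72.6, 80.8, 81.7 and 79.2 in ENR and 7.10, 10.3, 11.6 and 9.36 in EN, with EN − CV at -2.22 ± 0.11 (SE, adjusted p = 1.9e-11). All 4 kinases were lower in CV than in ENR, with log2 differences from -0.84 (Cdk6) to -0.37 (Cdk4).

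**Figure D2:**
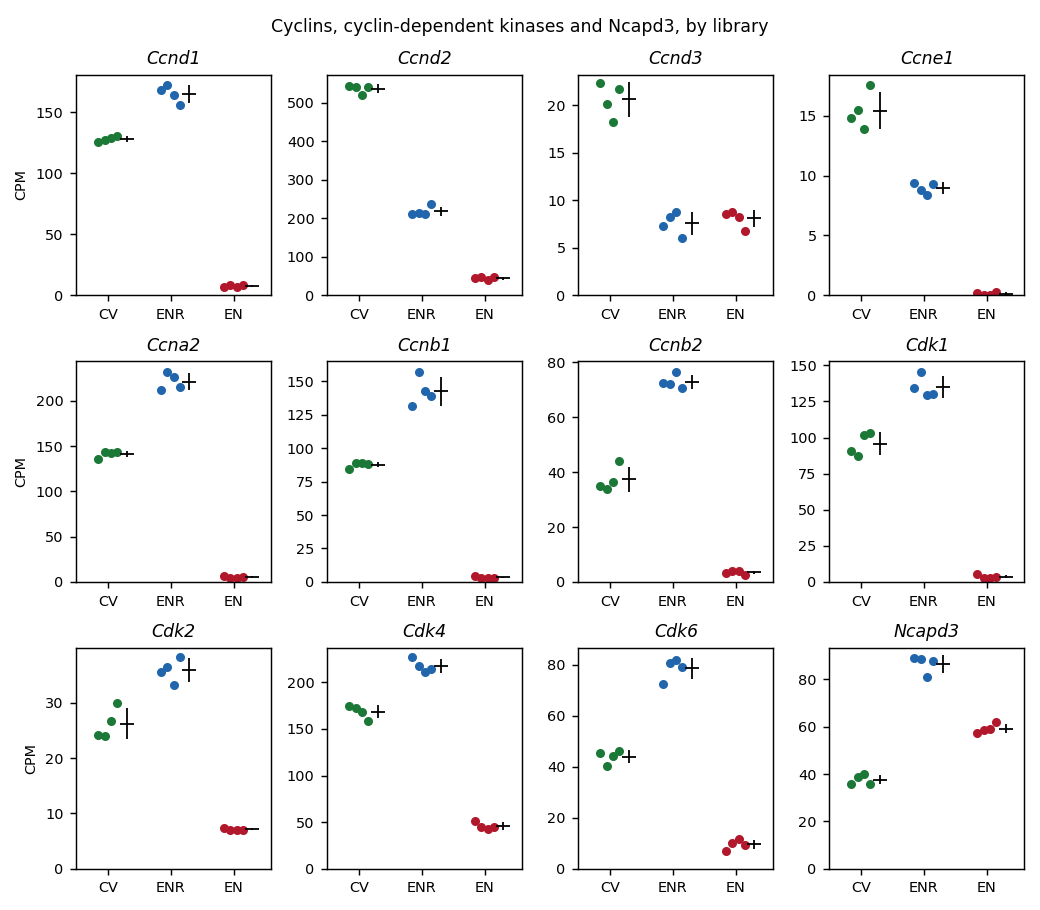
mRNA levels in CPM (vertical axes, linear, own scale in each panel) of the cyclins, the cyclin-dependent kinases and Ncapd3 in the CV, ENR and EN libraries (horizontal axes). Points are libraries, and bars give the mean ± SD of 4. Ccnd2, Ccnd3 and Ccne1 were highest in CV, the other cyclins and the kinases were highest in ENR, and Ncapd3 was lowest in CV.

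The Aurora and Polo kinases with their activators Tpx2 and Birc5 all fell, 5 of 5 lower in EN than in CV and ENR and 5 of 5 lower in CV than in ENR. Aurkb, the kinase of the chromosomal passenger complex, was 32.3, 31.5, 28.5 and 32.3 CPM in CV, 49.7, 48.3, 47.2 and 49.7 in ENR and 1.47, 1.28, 0.892 and 1.15 in EN. The EN values rested on 5 to 11 counts per library, and the EN − CV log2 difference was -4.66 ± 0.12 (SE, adjusted p = 8.9e-15). Aurka, which acts at the spindle poles, was 18.9, 18.95, 18.8 and 24.5 CPM in CV, 34.4, 46.5, 41.1 and 42.5 in ENR and 2.01, 1.93, 1.78 and 2.16 in EN. CV lay between EN and ENR, at -3.34 ± 0.16 (SE, adjusted p = 2.4e-11) for EN − CV and -1.02 ± 0.10 (SE, adjusted p = 5.3e-07) for CV − ENR.

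Plk1, the Polo kinase of mitotic entry and cytokinesis, had 13.5, 12.8, 13.9 and 17.1 CPM in CV, 24.5, 23.9, 24.9 and 24.8 in ENR and 1.88, 0.856, 1.61 and 1.73 in EN, with EN − CV at -3.18 ± 0.17 (SE, adjusted p = 6.5e-11). Tpx2, which targets Aurora A to the spindle, was 42.5, 41.4, 41.0 and 47.5 CPM in CV, 56.2, 56.6, 54.7 and 59.1 in ENR and 4.56, 4.50, 5.35 and 4.17 in EN. The 3 cultures kept the order EN, CV, ENR for Tpx2, whose EN − CV log2 difference was -3.22 ± 0.09 (SE, adjusted p = 2.9e-14). Birc5, the survivin subunit of the passenger complex, stood at 25.2, 26.7, 26.5 and 30.5 CPM in CV, 39.8, 42.9, 45.4 and 43.8 in ENR and 7.37, 6.64, 6.24 and 5.76 in EN. This was the smallest EN − CV change of the group, -2.06 ± 0.10 (SE, adjusted p = 2.1e-11), and EN still lay below every CV and ENR library.

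All 5 transcripts of spindle checkpoint genes were lower in EN than in CV, with a median log2 difference of -3.98. Bub1b, the checkpoint kinase BubR1, had the largest change, from 76.7, 80.9, 79.8 and 75.4 CPM in CV, 129, 135, 131 and 128 in ENR and 3.35, 4.92, 4.82 and 4.17 in EN, at -4.20 ± 0.08 (SE, adjusted p = 5.0e-16) for EN − CV. Cdc20, the activator of the anaphase-promoting complex that the checkpoint holds back, was 51.6, 48.1, 49.4 and 62.8 CPM in CV, 95.5, 103, 103 and 91.9 in ENR and 3.08, 2.78, 2.32 and 4.75 in EN. It was lowest in EN and highest in ENR without overlap, and EN − CV was -3.99 ± 0.15 (SE, adjusted p = 1.1e-12). Mad2l1, which binds Cdc20, was 25.5, 24.6, 26.4 and 24.2 CPM in CV, 39.4, 41.9, 37.5 and 36.5 in ENR and 1.74, 1.71, 1.25 and 1.58 in EN, at -3.98 ± 0.11 (SE, adjusted p = 4.6e-14).

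Bub3, which brings the checkpoint kinases to kinetochores, changed less. Its more abundant transcript was 60.2, 49.0, 48.0 and 53.5 CPM in CV, 58.0, 59.2, 59.2 and 61.5 in ENR and 24.1, 21.8, 23.4 and 28.4 in EN, with an EN − CV log2 difference of -1.10 ± 0.09 (SE, adjusted p = 8.8e-09), and the second transcript gave -0.80 ± 0.12. Neither Bub3 transcript passed the test between CV and ENR (log2 differences -0.18 ± 0.08 and -0.17 ± 0.11), and both turned positive on the scale of mRNA copies. With both transcripts summed, in a separate edgeR fit of counts per gene, CV − ENR was -0.18 ± 0.05 (SE, adjusted p = 0.0029).

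Of the 13 kinetochore and centromere transcripts, 12 were lower and 1 was higher in EN than in CV, and 11 were lower in EN than in ENR. Cenpi, a subunit of the inner kinetochore network, had the largest change, at 14.3, 14.5, 17.4 and 15.2 CPM in CV, 20.9, 25.7, 23.4 and 22.9 in ENR and 0.268, 0.214, 0.357 and 0.288 in EN. The EN libraries held 1 to 2 Cenpi counts, and the ratio to EN was 54.1 (95% counting interval 26.1 to 135) for CV and 81.3 (95% counting interval 39.2 to 203) for ENR. Ndc80, the microtubule-binding subunit of the outer kinetochore, was 16.04, 19.8, 18.03 and 18.9 CPM in CV, 38.8, 41.6, 37.5 and 35.4 in ENR and 0.670, 0.642, 0.892 and 0.576 in EN. Its EN − CV log2 difference was -4.69 ± 0.16 (SE, adjusted p = 2.7e-13) and that of CV − ENR was -1.07 ± 0.08 (SE, adjusted p = 2.7e-08), and Nuf2, its partner in the same complex, gave -5.08 ± 0.14 and -0.51 ± 0.07.

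Cenpm was at 0, 0.428, 0 and 0 CPM in EN against 3.64, 3.47, 2.92 and 4.94 CPM in CV. Its ratio of CV to EN, 46.5 (95% counting interval 12.6 to 389), rested on 2 counts in 1 EN library. The other subunits of the constitutive network, Cenph, Cenpp, Cenpu, Cenpn, Cenpt and Cenpq, were lower in EN than in CV by log2 differences from -4.27 (Cenph) to -1.66 (Cenpq). Cenpf, a large protein of the outer kinetochore, gave -2.86 ± 0.09. Between CV and ENR, Cenpm, Cenpn, Cenpt and Cenpu did not pass the test, with log2 differences of -0.56, -0.32, -0.38 and -0.31, of which those of Cenpn and Cenpu turned positive on the scale of mRNA copies.

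Cenpv and Cenpb had the smallest EN − ENR differences of the kinetochore and centromere genes. Cenpv mRNA was 67.2, 69.9, 65.5 and 72.2 CPM in CV, 132, 124, 131 and 134 in ENR and 125, 122, 119.5 and 119.9 in EN. CV was the lowest group without overlap, with a log2 difference of 0.82 ± 0.04 (SE, adjusted p = 6.1e-11) for EN − CV and -0.92 ± 0.04 (SE, adjusted p = 6.4e-11) for CV − ENR, while EN and ENR overlapped (-0.10 ± 0.04 (SE, adjusted p = 0.036), positive on the copy scale). Cenpb was 275, 285, 257 and 277 CPM in CV, 225, 227, 222 and 225 in ENR and 241, 237, 225 and 244 in EN. Cenpb was lower in EN than in CV by a small amount on the CPM scale, -0.21 ± 0.04 (SE, adjusted p = 1.1e-04), which became 0.63 on the scale of mRNA copies. Its CV libraries lay above the ENR libraries, at 0.28 ± 0.04 (SE, adjusted p = 8.1e-06).

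The condensins compact chromosomes for mitosis, and of their 8 transcripts 7 were lower and 1 was higher in EN than in CV. Ncaph, a condensin I subunit, changed most, with 57.3, 62.5, 61.5 and 61.8 CPM in CV, 65.8, 79.8, 71.5 and 74.5 in ENR and 2.01, 2.57, 0.892 and 1.73 in EN and an EN − CV log2 difference of -5.08 ± 0.14 (SE, adjusted p = 2.2e-14). Ncapg, also of condensin I, was 67.0, 64.6, 66.7 and 69.3 CPM in CV, 85.8, 92.1, 89.6 and 84.1 in ENR and 2.01, 2.36, 3.03 and 2.30 in EN. All EN libraries lay below all others, and EN − CV was -4.79 ± 0.09 (SE, adjusted p = 3.8e-16). Smc2, the ATPase shared by both condensins, was 119.7, 112, 130.03 and 115 CPM in CV, 147, 173, 147 and 157 in ENR and 6.30, 5.57, 6.78 and 8.78 in EN, at -4.09 ± 0.10 (SE, adjusted p = 1.2e-14). Its partner Smc4 gave -1.91 ± 0.08, and Ncapg2 and Ncapd2 gave -4.37 ± 0.16 and -3.36 ± 0.11. Ncaph2 of condensin II was lower in EN than in CV (-0.78 ± 0.06 on the log2 scale) and did not pass between CV and ENR (0.02 ± 0.05, negative with DESeq2, with a higher count minimum and on the spike-in scale). Its EN − ENR difference of -0.76 ± 0.06 became 0.17 on the copy scale.

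Ncapd3, another condensin II subunit, was 36.0, 38.6, 39.9 and 35.9 CPM in CV, 89.0, 88.5, 80.9 and 87.8 in ENR and 57.4, 58.5, 58.9 and 61.8 in EN. CV was the lowest group and ENR the highest with no overlap, and the log2 difference was 0.65 ± 0.05 (SE, adjusted p = 2.0e-08) for EN − CV, -1.20 ± 0.05 (SE, adjusted p = 3.5e-11) for CV − ENR and -0.55 ± 0.05 (SE, adjusted p = 8.3e-08) for EN − ENR, which became 0.50 on the scale of mRNA copies. Ncapd3 was the only member with the order CV below EN below ENR in all libraries.

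Cohesin holds sister chromatids together and also shapes chromatin loops in cells that do not divide. Its 2 listed ATPase subunits and those of the Smc5/6 repair complex were all lower in EN than in CV, with a median log2 difference of -0.94. Smc3, a cohesin subunit, was 100.8, 101.4, 102 and 98.9 CPM in CV, 127, 119.9, 118 and 114 in ENR and 50.0, 47.7, 41.2 and 49.8 in EN. Every EN library lay below every CV and ENR library, and EN − CV was -1.09 ± 0.06 (SE, adjusted p = 7.1e-11). Smc1a, its partner, had 97.7, 113, 102 and 110.1 CPM in CV, 164, 165, 158 and 165 in ENR and 62.9, 68.1, 49.9 and 77.7 in EN and the smallest change of the 4, -0.71 ± 0.09 (SE, adjusted p = 3.8e-06), which became 0.03 on the scale of mRNA copies. Smc5 and Smc6 gave -1.08 ± 0.06 and -0.80 ± 0.07. All 4 were also lower in CV than in ENR, with differences from -0.62 (Smc1a) to -0.25 (Smc3).

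All 10 transcripts of mitotic kinesins, motors that build the spindle and move chromosomes, were lower in EN than in CV, with a median log2 difference of -3.96. Kif2c, a microtubule depolymerase at the centromere, changed most, at 17.2, 19.6, 16.8 and 21.1 CPM in CV, 38.8, 41.4, 40.8 and 33.7 in ENR and 0.402, 0.428, 0.892 and 0.864 in EN. The log2 difference was -4.81 ± 0.20 (SE, adjusted p = 2.9e-12) for EN − CV and -1.04 ± 0.10 (SE, adjusted p = 3.7e-07) for CV − ENR, and no groups overlapped. Kif11, the motor that separates the spindle poles, was 127, 143, 135 and 135 CPM in CV, 221, 239, 225 and 225 in ENR and 8.04, 8.56, 6.06 and 8.06 in EN, with EN − CV at -4.13 ± 0.07 (SE, adjusted p = 2.3e-16). Kif18a, Kif20a, Kif20b and Kif22, which act on chromosome alignment and in cytokinesis, gave differences from -4.71 (Kif18a) to -3.92 (Kif20a), and Kif4, a chromosome-bound kinesin, gave -2.46 ± 0.10.

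Kif23, a motor of the central spindle, was listed as 2 transcripts whose counts moved between libraries. Summed over both, Kif23 was 25.2, 30.3, 32.9 and 31.8 CPM in CV, 64.5, 76.6, 61.3 and 72.1 in ENR and 6.57, 6.42, 6.42 and 7.49 in EN. The summed levels of the cultures did not overlap, and EN − CV was -2.15 ± 0.12 (SE, adjusted p = 7.3e-17 in the separate edgeR fit of sums per gene) on the log2 scale. Kif2a, a microtubule depolymerase that also acts in neurons, changed least of the mitotic kinesins, at 55.8, 50.5, 53.9 and 43.0 CPM in CV, 37.4, 38.0, 36.6 and 34.9 in ENR and 32.8, 43.5, 38.0 and 33.0 in EN. Its mean was highest in CV, although CV and EN libraries overlapped, with a log2 difference of -0.48 ± 0.09 (SE, adjusted p = 2.5e-04) for EN − CV, which became 0.29 on the copy scale, and 0.47 ± 0.09 (SE, adjusted p = 3.6e-04) for CV − ENR, while EN and ENR overlapped (-0.01 ± 0.10 (SE, adjusted p = 0.94), of the opposite sign with DESeq2 and on the copy scale).

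Kif21a and Kif21b, which the naming rule took although they are not mitotic motors, had smaller EN − CV differences than all mitotic kinesins but Kif2a. The more abundant Kif21a transcript was 78.2, 79.8, 71.8 and 72.4 CPM in CV, 50.4, 51.7, 50.6 and 50.1 in ENR and 24.4, 25.3, 24.8 and 26.8 in EN, highest in CV and lowest in EN, with EN − CV at -1.58 ± 0.06 (SE, adjusted p = 5.0e-13). Its EN − ENR difference of -1.001 ± 0.06 became 0.03 on the copy scale. The second transcript did not pass in any comparison (EN − CV -0.55 ± 0.33). Kif21b was 50.1, 44.8, 44.4 and 44.9 CPM in CV, 28.4, 28.8, 31.1 and 26.05 in ENR and 35.8, 37.7, 34.1 and 37.9 in EN. Kif21b was the only member higher in EN than in ENR, at 0.35 ± 0.07 (SE, adjusted p = 3.0e-04), which turned negative on the spike-in scale. Its EN − CV difference of -0.34 ± 0.07 (SE, adjusted p = 2.0e-04) became 0.41 on the scale of mRNA copies.

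The proliferation marker Mki67, which coats mitotic chromosomes, and Top2a, the topoisomerase that untangles DNA before chromosome separation, were each listed as 2 transcripts that shared reads unevenly. The EN libraries held 0, 13.1, 0 and 5.90 CPM of 1 Top2a transcript and 11.8, 0, 12.5 and 10.2 CPM of the other, so a high value of 1 went with a low value of the other. The sum for Top2a was 460.5, 448, 466 and 455 CPM in CV, 739, 749.7, 727 and 725 in ENR and 11.8, 13.1, 12.5 and 16.1 in EN. In the separate edgeR fit of sums per gene, this gave a log2 difference of -5.09 ± 0.07 (SE, adjusted p = 3.7e-34) for EN − CV. The summed values of EN lay far below those of CV and ENR. Adjusted p-values of that fit are not comparable with those of single transcripts. Mki67 summed to 199.7, 179.8, 174 and 185 CPM in CV, 241, 266, 252 and 249.2 in ENR and 11.4, 11.3, 9.10 and 12.4 in EN, at -4.05 ± 0.08 (SE, adjusted p = 7.7e-30). Anln, the scaffold of the cleavage furrow, was 34.4, 38.2, 35.3 and 37.1 CPM in CV, 50.8, 53.2, 48.6 and 55.5 in ENR and 3.62, 2.78, 2.32 and 3.74 in EN, with EN − CV at -3.50 ± 0.11 (SE, adjusted p = 1.4e-13), and Prc1, which bundles midzone microtubules, gave -3.43 ± 0.09. In CV all these genes were lower than in ENR, with summed differences of -0.69 ± 0.04 (Top2a) and -0.45 ± 0.05 (Mki67).

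**Figure D3:**
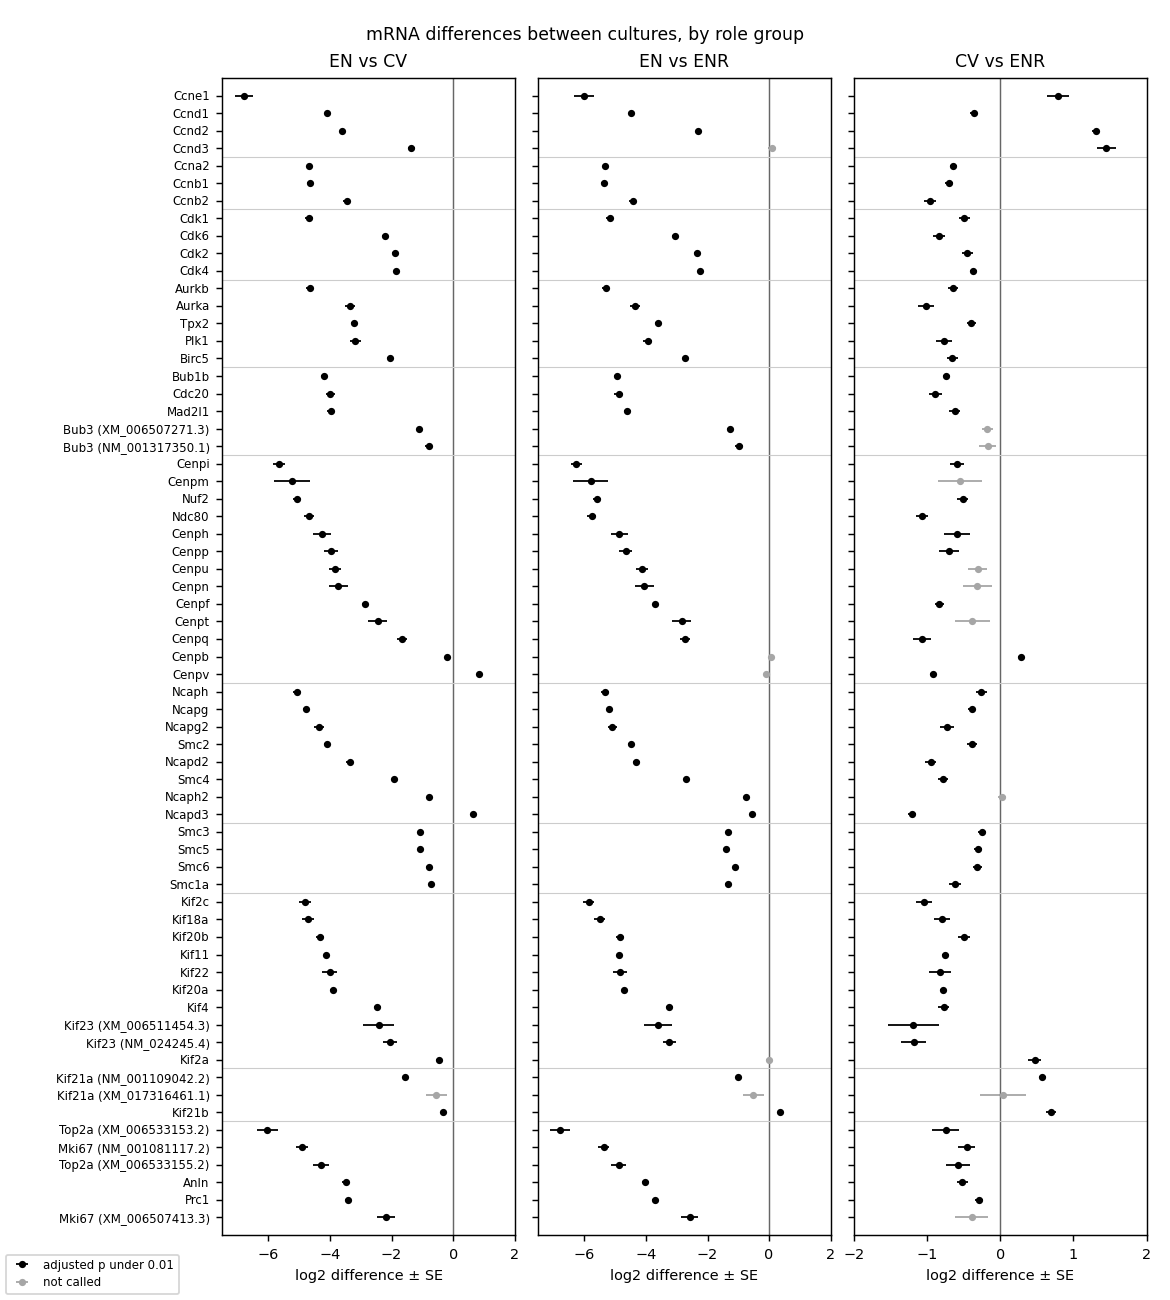
Fitted log2 differences (horizontal axis) ± SE of the 65 member transcripts (vertical axis, by role) for EN − CV, EN − ENR and CV − ENR. Points left of 0 are lower in the culture named first. The range was -6.80 (Ccne1) to 0.82 (Cenpv) for EN − CV, -6.79 (a Top2a transcript) to 0.35 (Kif21b) for EN − ENR and -1.20 (Ncapd3) to 1.45 (Ccnd3) for CV − ENR.

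Genes that work with the members were counted from lists of other complexes, beside 41.2% lower and 35.2% higher in EN than in CV over all transcripts. Of 22 genes of replication licensing and the replication fork sought, 20 were tested and all 20 were lower in EN than in CV, with a median log2 difference of -2.93, from -6.36 ± 0.13 for the helicase subunit Mcm3 (2 to 6 counts per EN library) to -0.70 ± 0.06 for the origin subunit Orc4. Of 27 partners at kinetochore and spindle (33 sought), 25 were lower and 1 was higher (median -2.81). Kntc1, a subunit of the complex that brings dynein to kinetochores, had the lowest value, -5.63 ± 0.17, from 2 to 10 counts per EN library, and Hjurp, the chaperone that loads the centromeric histone, was higher at 0.66 ± 0.04. The anaphase-promoting complex had 8 of 11 tested genes lower (15 sought) and 2 higher, with smaller differences (median -0.58), from -1.59 ± 0.08 (Cdc23) to 0.90 ± 0.08 (Anapc2).

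For the next 3 lists too, the shares over all transcripts were 41.2% lower and 35.2% higher in EN than in CV. Of 10 cohesin partners (12 sought), 4 were lower and 5 higher, with a median log2 difference EN − CV of 0.05. Esco2, which acetylates cohesin in S phase, gave -5.72 ± 0.13, from 3 to 7 counts per EN library, and Mau2, part of the cohesin loader, gave 1.02 ± 0.06. Among 17 CDK inhibitors, pocket proteins, E2F and DREAM genes (26 sought), 9 were lower and 5 higher (median -0.40). The repressor E2f8 was lowest at -2.51 ± 0.25, and Cdkn2b, an inhibitor of Cdk4 and Cdk6, was highest at 2.15 ± 0.06, with 67.7 ± 4.98 CPM in CV and 301 ± 20.9 CPM in EN (mean ± SD, n = 4). Of 15 kinases and cyclins that act in transcription rather than the cell cycle (16 sought), 4 were lower and 5 higher (median 0.08), from -1.78 ± 0.08 (Mnat1) to 1.15 ± 0.11 (Cdk11b).

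Over all transcripts, 37.2% were lower and 35.5% higher in EN than in ENR, and 29.8% lower and 30.2% higher in CV than in ENR. Against ENR, all 20 replication genes were lower in EN (median log2 difference -3.37), as were 26 of 27 kinetochore and spindle partners (-3.77), 8 of 11 genes of the anaphase-promoting complex (-0.67) and 8 of 10 cohesin partners (-0.74). Of the CDK inhibitors, pocket proteins, E2F and DREAM genes 9 were lower and 4 higher (-0.27), and of the transcriptional kinases and cyclins 6 were lower and 2 higher (-0.05). Between CV and ENR, 14 replication genes were lower and 3 higher in CV, 21 kinetochore and spindle partners lower and 1 higher, 4 anaphase-promoting complex genes lower and 2 higher, and all 10 cohesin partners lower. The CDK inhibitors, E2F and DREAM list had 7 lower and 3 higher, of which Cdkn1a, the inhibitor p21, was highest at 1.15 ± 0.11.

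Chromatin at the members' promoters was read from 94469 regions, the union of peaks on build mm9. A region within 500 bp of an annotated start site was found for 59 of 60 genes, in 68 regions, and Cenpt had none. For 13 of the 59 genes the most open such region also lay within 500 bp of another gene's start, so its signal cannot be assigned to 1 gene. The authors' scores are normalised read counts per region. The median ATAC score over the 59 main regions, the most open one of each gene, was 88.3 in CV, 86.3 in ENR and 80.0 in EN. For H3K27ac the median of these regions was 58.3, 69.7 and 39.3 in CV, ENR and EN, the median H3K4me3 score 61.7, 66.7 and 58.3, and the median score of H3K27me3, a mark of repressed genes, 6.33, 4 and 7. Since openness chose these regions, the medians are not set against those of other regions.

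ATAC-seq differences at the member promoters went in both directions, and for EN − CV the shares called were near those of all regions near a start site. With limma on log2(score + 1) and an adjusted p under 0.05, 11 of 68 member regions (16.2%) were more open in EN than in CV and 11 (16.2%) less open. Over all regions near a start site these were 18.6% and 15.9%. Against ENR, 9 (13.2%) were more and 11 (16.2%) less open in EN, beside 9.76% and 10.1% of all. Between CV and ENR, 3 (4.41%) were more and 1 (1.47%) less open in CV, beside 5.85% and 8.77%. The median member log2 differences were -0.02 for EN − CV, 0.03 for EN − ENR and 0.02 for CV − ENR. Without ENR replicate 2 or 4 the EN − ENR count was 13 in place of 20.

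The Ccna2 promoter at chr3:36469570-36471345 had ATAC scores of 171, 168, 179 and 159 in CV, 263, 207, 254 and 233 in ENR and 313, 343, 407 and 333 in EN. All EN libraries lay above all others while Ccna2 mRNA was lowest in EN, and the ATAC log2 difference EN − CV was 1.03 ± 0.10 (SE, limma adjusted p = 2.5e-07). Ndc80 and Nuf2, both with mRNA far lower in EN, also had higher ATAC scores there, with log2 differences EN − CV of 0.68 ± 0.11 and 0.51 ± 0.12. The Cenpf promoter at chr1:191511417-191512724 gave 0.66 ± 0.12 for ATAC. Its H3K27ac scores were 45, 21 and 40 in CV, 24, 25 and 34 in ENR and 6, 10 and 9 in EN, lower in EN with a log2 difference of -1.92 ± 0.47 (adjusted p = 0.0086 by limma).

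The Ccnd1 and Ccnd2 promoters changed the other way in ATAC-seq. At Ccnd1, chr7:152125650-152126079, the scores were 20, 17, 17 and 19 in CV, 17, 18, 23 and 20 in ENR and 3, 9, 3 and 7 in EN, with every EN library lowest and an EN − CV log2 difference of -1.68 ± 0.27. Its H3K27ac scores were 20, 15 and 14 in CV, 34, 80 and 50 in ENR and 7, 2 and 9 in EN, at -3.08 ± 0.52 for EN − ENR (limma adjusted p = 9.5e-04). At Ccnd2, chr6:127100934-127101167, ATAC scores were 42, 34, 25 and 39 in CV, 26, 22, 34 and 29 in ENR and 17, 14, 14 and 16 in EN, with EN − CV at -1.13 ± 0.19. The H3K27ac difference EN − CV at the same Ccnd2 region was -2.06 ± 0.58. ATAC scores at Cenph, Kif2c and Cdc20 were also lower in EN, with log2 differences of -1.19 ± 0.19, -0.85 ± 0.18 and -0.50 ± 0.14. Smaller decreases in EN against CV passed at Aurkb, Ccnb2, Plk1, Ncaph and Ncaph2, and smaller increases at Aurka, Cdk6, Cenpn, Cenpq, Mad2l1, Ncapd3 and Smc6. Between CV and ENR, the largest ATAC difference was at Kif22, more open in CV by 0.94 ± 0.27, while its mRNA was lower in CV (-0.82 ± 0.15).

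H3K27ac, a mark of active promoters and enhancers, was lower at 10 of 68 member regions and higher at 3 in EN than in CV, beside 3.55% lower and 15.4% higher over all regions near a start site. Against ENR, 10 were lower and 0 higher in EN (1.3% and 2.42% of all), and 5 were lower and 0 higher in CV than in ENR (5.96% and 0.863%). The median member log2 difference EN − CV was -0.33, against 0.15. CV was grown with a histone deacetylase inhibitor, so culture state and the inhibitor cannot be told apart where CV is compared. These counts depended on the settings, and with limma without a trend in the spread 3 regions were called for EN − CV and 0 in the others. Without ENR replicate 2 the EN − ENR count was 3, and without ENR replicate 4 the CV − ENR count was 0.

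At Cdk1, chr10:68813879-68816066, the H3K27ac scores were 82, 117 and 74 in CV, 106, 80 and 96 in ENR and 29, 13 and 16 in EN. The EN libraries lay below all CV and ENR libraries, and the log2 difference EN − CV was -2.23 ± 0.34 (SE, adjusted p = 4.6e-05 by limma). Mki67, Aurkb and Ccnd3 were lower as well, at -1.49 ± 0.32, -1.45 ± 0.37 and -1.11 ± 0.34. The regions called higher in EN were those of Cenpv, Ncapd3 and Cenpn. At Cenpv, chr11:62351189-62353076, scores were 121, 162 and 219 in CV, 278, 273 and 236 in ENR and 348, 292 and 328 in EN, with EN − CV at 0.98 ± 0.18. At Ncapd3, chr9:26836804-26838741, which lies at the start of Vps26b too, scores were 66, 72 and 77 in CV, 155, 140 and 120 in ENR and 145, 168 and 141 in EN and EN − CV was 1.07 ± 0.23. Cenpv and Ncapd3 were also the 2 members with higher mRNA in EN than in CV. The Cenpn region, where mRNA was lower in EN, is shared with 2310061C15Rik and gave 1.11 ± 0.24. These 3 regions were also lower in CV than in ENR, at -0.68 ± 0.18, -0.93 ± 0.23 and -1.003 ± 0.24, as were Cenpb and Smc2. Against ENR, the promoters of Anln, Ccnb1, Ncapg2 and Top2a were lower in EN, at -1.59 ± 0.36, -1.66 ± 0.43, -1.59 ± 0.42 and -1.33 ± 0.36.

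Among the 37 genes with mRNA lower in EN than in CV by more than 3 on the log2 scale, the median H3K27ac log2 difference EN − CV at the main region was -0.56, and among the other 22 it was -0.09. ATAC was higher at 6 and lower at 9 of the 37, and higher at 5 and lower at 1 of the 22. Over all regions near a start site, which were not chosen by openness, 18.6% were higher and 15.9% lower in ATAC. The difference between these groups of genes was not tested.

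**Figure D4:**
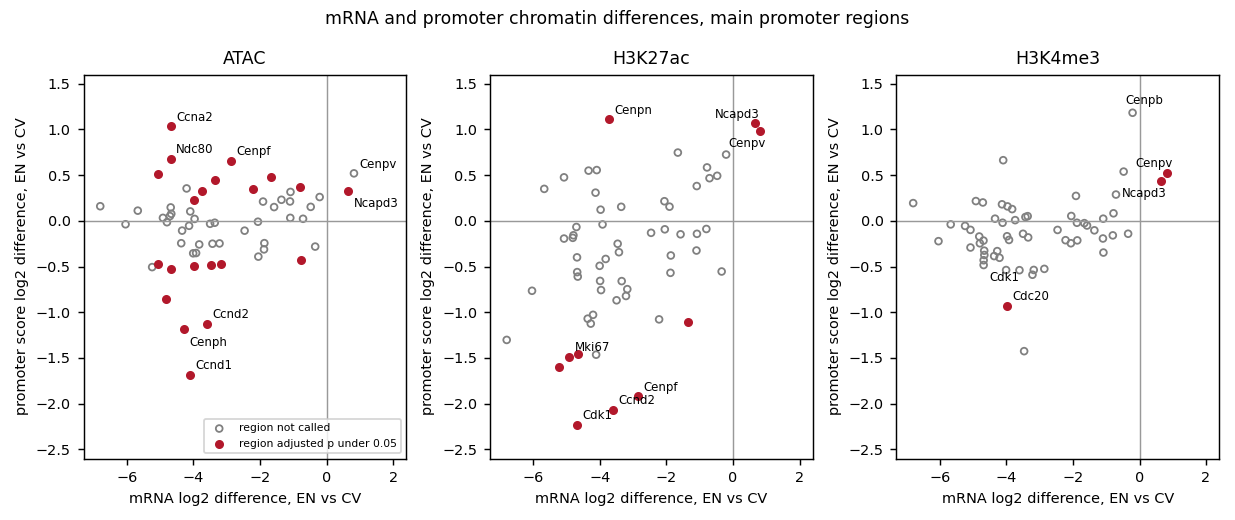
Log2 difference EN − CV of mRNA (horizontal axes) against that of ATAC, H3K27ac and H3K4me3 scores (vertical axes) at the main promoter region of each of 59 genes. Points are genes. For genes with lower mRNA in EN, ATAC differences lay on both sides of 0, from -1.68 at Ccnd1 to 1.03 at Ccna2, and H3K27ac was highest at Cenpn. Ncapd3 and Cenpv, with higher mRNA in EN, had higher H3K27ac in EN.

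H3K4me3, a mark of start sites, was higher at 2 and lower at 2 of 68 member regions in EN than in CV, beside 4.21% and 5.39% of all regions near a start site, and lower at 5 and higher at 0 against ENR (2.27% and 3.46%). Without CV replicate 3 the EN − CV count was 0, and without ENR replicate 1 the EN − ENR count was 1. The median member log2 difference in H3K4me3 was -0.14 for EN − CV, -0.15 for EN − ENR and -0.10 for CV − ENR. Over all regions near a start site these medians were 0.05, 0.13 and 0.08. Member regions held 0.392 to 0.397% of the summed H3K4me3 score in EN and 0.448 to 0.470% in CV. Every ENR library held a larger share than every CV library. These shifts were not tested. At Cdc20, chr4:118109052-118110698, the H3K4me3 scores were 48, 58 and 51 in CV, 58, 61 and 56 in ENR and 21, 32 and 29 in EN, with EN − CV at -0.93 ± 0.16. Cenpv and Ncapd3 gave 0.53 ± 0.10 and 0.44 ± 0.09. Against ENR the promoters of Cdc20, Cdk1, Cenpf and Ncapg2 were lower in EN, from -1.09 ± 0.16 (Cdc20) to -0.45 ± 0.10 (Ncapg2). Between CV and ENR limma called 0 member regions for H3K4me3, beside 0.89% higher and 0.0453% lower of all, and 3 of 68 had an unadjusted p under 0.05. For H3K27me3, a repressive mark, limma called 0 member regions in all 3 comparisons, where 3, 7 and 4 of 68 had an unadjusted p under 0.05 for EN − CV, EN − ENR and CV − ENR. Over all regions near a start site, 0.282%, 0% and 0.0332% were higher and 0.0885%, 0.0498% and 1.57% lower in those comparisons. The median member log2 differences in H3K27me3 were 0.20, 0.73 and 0.42, against 0.21, 0.39 and 0.19 over those regions. The median SE at the main regions was 0.76, so the test was weak for this mark. Member regions held 0.0459 to 0.0508% of the summed H3K27me3 score in EN, 0.0310 to 0.0377% in CV and 0.0297 to 0.0379% in ENR. The difference in share was not tested.

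**Figure D5:**
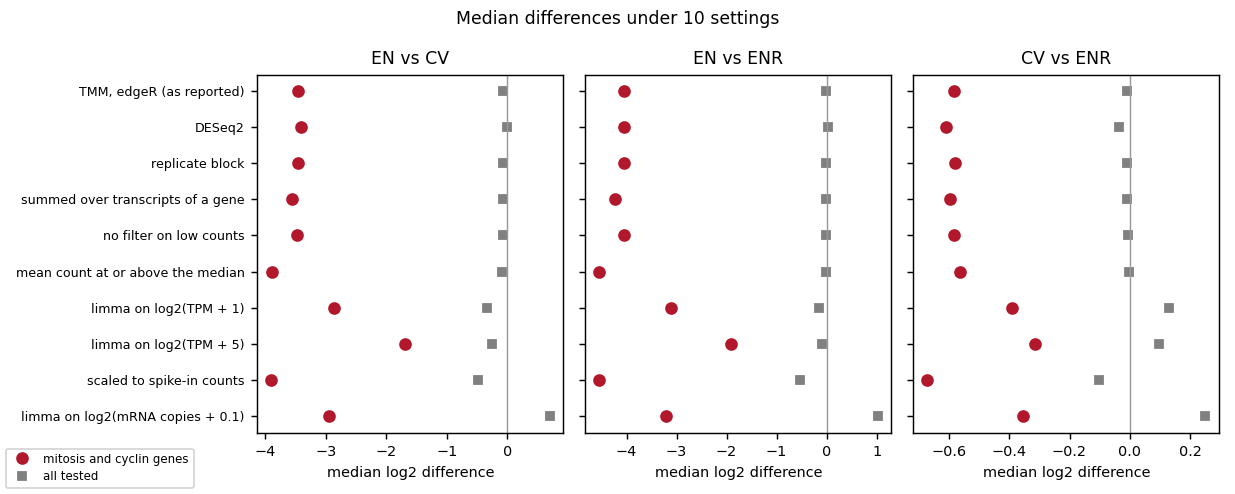
Median log2 difference (horizontal axes) of the member transcripts and of all transcripts tested in each of 10 settings (vertical axis) for EN − CV, EN − ENR and CV − ENR. The member median stayed below that of all transcripts in every setting shown, while the median of all transcripts moved to 0.69, 1.02 and 0.25 on the scale of mRNA copies.

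The scale set how large the member differences were. Scaling to deposited mRNA copies moved the median log2 difference of all transcripts to 0.69 for EN − CV, 1.02 for EN − ENR and 0.25 for CV − ENR, and scaling to spike-in counts moved it to -0.49, -0.52 and -0.10. The member medians were -2.94, -3.21 and -0.35 on the copy scale and -3.90, -4.54 and -0.67 on the spike-in scale, so members lay below the median of all transcripts on both.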

How the data were processed

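RNA-seq, ATAC-seq and ChIPmentation of mouse organoids were used, 54 of 66 samples, with cultures taken from the sample labels. The 10 histone mark samples without a column in the deposited region table, and 2 RNA-seq samples of ENR organoids, labelled Hnf4gKO and WT with 1 library each, were not used here. Members and gene lists were chosen with earlier results of these data known.

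For RNA, the authors deposited an expected count per transcript from kallisto, run against RefSeq transcripts of quantified proteins, so transcripts outside that index have no value. Beside it the authors deposited TPM and mRNA copies, a score scaled to spike-ins. Counts were rounded. A transcript entered the test where 4 or more of the 12 libraries had a nonzero count, and edgeR 4.0.16 was used (quasi-likelihood, TMM, Benjamini-Hochberg adjustment over 9288 transcripts, adjusted p under 0.01). Spike-ins, 0.837 to 1.36% of counts, were left out of library sizes. Totals of 5630951 to 8859744 counts limit precision, and members with at most 3 counts in every EN library are given as ratios with exact 95% counting intervals. Reads without molecular identifiers are not independent molecules, so the intervals cover counting error only. CPM values are computed from the deposited counts.

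For ATAC and histone marks, the authors aligned reads with BWA to mm9, called peaks with MACS2 2.0 and deposited, for every region in the union of peaks, a normalised score in whole numbers. H3K27me3 was scored over regions extended to 1000 bp. Depth is unknown for these scores. Regions with a score above 0 in at least 3 libraries were tested with limma 3.58.1 on log2(score + 1) with a trend (adjusted p under 0.05). Start sites came from GENCODE vM1. For Hnf4g the authors deposited raw read counts in 1 library per culture, which were not tested. The study's methods do not state how the scores were normalised.

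Members with values in every library were those of a fixed list of central regulators, the members with the highest and lowest EN − CV difference in each role, and members that moved against their role. Cenpb, Cenpm and the chromatin regions given by library were chosen after their values were seen. Steps were tested on simulated data. In simulated EN and CV libraries, edgeR found 94% of 100 transcripts changed 2-fold. Of 200 regions changed by 3 on the log2 scale, limma found 94% for ATAC, 38.5% for H3K27ac, 69.0% for H3K4me3 and 13.5% for H3K27me3. These were drawn at random from all regions tested, which mostly had lower ATAC, H3K27ac and H3K4me3 scores than the member promoters. The rates therefore do not describe the member promoters. Alternatives were DESeq2 1.42.0, other filters, pseudocounts and scalings, sums per gene, a replicate block and leaving out each library, run in R 4.3.3 and Python 3.11.15.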

Additional observations from a re-analysis of the deposited data

Results flagged for a closer look

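Within a culture, 13 of 195 groups of 4 mRNA values and 9 of 177 groups of 4 ATAC scores held 1 library far from the other 3. Far here means that the gap made up most of the range of the 4 values, so a small gap could be marked too. Chance alone marks about 1 in 20 groups. Among mRNA levels in CPM, the value far below the others was 519 for Ccnd2 in CV replicate 3 (others 541 to 543), 136 for Ccna2 in CV replicate 1, 67.0 for Kif20b in CV replicate 1, 6.91 for Cenpn in ENR replicate 1, 80.9 for Ncapd3 in ENR replicate 3, 104.7 for Smc6 in ENR replicate 2 and 158 for Smc1a in ENR replicate 3. The value far above the others was 236 for Ccnd2 in ENR replicate 4, 4.29 for Ccnb1 and 3.62 for Kif20a in EN replicate 1, 24.5 for Aurka and 50.1 for Kif21b in CV replicates 4 and 1, and 0.428 for Cenpm in EN replicate 2, whose other libraries were at 0.

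In CV replicate 4, ATAC scores marked as above the others were 23 at Aurkb (others all at 22), 163 at Smc3 (116 to 124) and 90 at Tpx2 (74 to 76). Also marked as above were 86 at Tpx2 and 55 at Kif21b in ENR replicate 2 and 100 at Smc1a in ENR replicate 1. In EN these were 58 at Kif4 in replicate 2 and 276 at Kif18a in replicate 3. At Kif2a, CV replicate 4 was far below the others at 85. Of these 9 ATAC values, 4 came from CV replicate 4.

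Hnf4g, a transcription factor of enterocytes, was profiled in 1 library per culture and enters no comparison. Its reads at the member promoter regions were 153 of 84340 reads in all regions for CV (0.181%, Wilson 95% interval 0.155 to 0.212%), 520 of 352600 for ENR (0.147%, 0.135 to 0.161%) and 3606 of 1816497 for EN (0.199%, 0.192 to 0.205%). As a mean per region, scaled to reads in all regions, these were 26.7, 21.7 and 29.2 CPM in CV, ENR and EN, against 21.98, 22.8 and 32.1 CPM over regions near any start site. The intervals cover counting error only, and the difference between cultures has no replicate check.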

How the results depend on the processing

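With DESeq2, no filter, both TPM scales, spike-in scaling or the replicate block, 62 members were lower in EN than in CV, and on the copy scale 51. With a minimum set at the median of the mean counts, 32 members were tested, of which 30 were lower in EN than in CV, 31 lower and 0 higher than in ENR, and 3 higher and 27 lower in CV than in ENR, with medians of -3.89 for EN − CV and -4.54 for EN − ENR. The member medians for EN − CV, EN − ENR and CV − ENR were -2.86, -3.10 and -0.39 on log2(TPM + 1), -1.68, -1.92 and -0.32 on log2(TPM + 5), -3.90, -4.54 and -0.67 scaled to spike-in counts, and -2.94, -3.21 and -0.35 on mRNA copies. Summed over the transcripts of a gene, they were -3.55 for EN − CV and -4.23 for EN − ENR. On both TPM scales 0 members were higher in EN than in ENR. Scaled to spike-in counts, 0 members were higher in EN than in CV or ENR, and 3 were higher and 32 lower in CV than in ENR. On mRNA copies 5 members were higher in EN than in ENR, and 3 were lower in CV than in ENR. On log2(TPM + 1) the median of all transcripts was -0.34, -0.14 and 0.13. Apart from the scales and the count minimum, which set the values by their construction, the cause was not tested.

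For regions, limma without a trend called 13, 10 and 0 member regions for ATAC in EN − CV, EN − ENR and CV − ENR, 3, 0 and 0 for H3K27ac, and 1 and 3 for H3K4me3 in EN − CV and EN − ENR. Quantile normalisation gave 0 for H3K27ac in CV − ENR and 8 for H3K4me3 in EN − CV. H3K27me3 gave 0 calls in all of these. Log2(score + 5), the filter on mean score and the distance of 1000 bp left every count within 1.5 times the reported one.

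The labels do not say that a replicate number marks a shared batch. Correlations between the deviations of libraries with the same number from their culture means ranged from -0.08 to 0.11 for RNA, -0.05 to 0.04 for H3K27ac, -0.08 to 0.13 for H3K4me3 and -0.04 to 0.02 for H3K27me3. For ATAC they were positive in all 12 pairs, from 0.07 to 0.46 (mean 0.17, against -0.06 between other numbers), and 9 of 12 libraries correlated best with their own number, a hint from the data that the numbers were shared there. Not every pair exceeded 0.1 in any of these, so the numbers were not taken as pairs. With the replicate block, RNA gave 2 members higher and 62 lower for EN − CV, 1 and 59 for EN − ENR, and 7 and 46 for CV − ENR. The block called 26, 22 and 6 member regions for ATAC, 0, 0 and 0 for H3K27ac, and 1 and 1 for H3K4me3 in EN − CV and EN − ENR.

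Leaving out each library in turn gave RNA medians from -3.52 to -3.39 for EN − CV, -4.31 to -3.96 for EN − ENR and -0.60 to -0.52 for CV − ENR, and the members lower in CV than in ENR ranged from 45 to 49. Region counts ranged from 18 to 24, 13 to 21 and 1 to 6 for ATAC in the same 3 comparisons, 8 to 11, 3 to 11 and 0 to 4 for H3K27ac, and 0 to 4, 1 to 10 and 0 to 0 for H3K4me3. For ATAC EN − ENR the count was 13 without ENR replicate 2 or 4. For ATAC CV − ENR it was 1 without CV replicate 4 or ENR replicate 1, and 2 without CV replicate 3 or ENR replicate 2, 3 or 4. For H3K27ac EN − CV it was 8 without CV replicate 5 or EN replicate 2. For H3K27ac EN − ENR it was 3 without ENR replicate 2, 5 without CV replicate 5, and 4 without ENR replicate 1 or 4 or any of the EN replicates. For H3K27ac CV − ENR it was 0 without ENR replicate 4 or EN replicate 3 or 4, 1 without ENR replicate 1 or 2 or EN replicate 2, 2 without CV replicate 5 and 3 without CV replicate 3. For H3K4me3 EN − CV it was 0 without CV replicate 3 or 4 or EN replicate 2, and 2 without CV replicate 2 or ENR replicate 1 or 2. For H3K4me3 EN − ENR it was 10 without CV replicate 2, 1 without ENR replicate 1 or 2 or EN replicate 2, 2 without ENR replicate 4 and 3 without EN replicate 4.

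Single members changed sign as follows, on the log2 scale. On mRNA copies, EN − CV became 0.405 for Kif21b, 0.634 for Cenpb, 0.0330 for Smc1a, 0.295 for Kif2a and 0.0399 for the lesser Kif21a transcript. EN − ENR became 0.0322 and 0.441 for the Kif21a transcripts, 0.174 for Ncaph2, 0.840 for Cenpv, 0.501 for Ncapd3 and 1.11 for Kif2a. CV − ENR became 0.0335 and 0.0278 for the Bub3 transcripts, 0.00217 for the lesser Mki67 transcript, 0.0623 for Cenpu and 0.0232 for Cenpn. Scaled to spike-ins, EN − ENR became -0.170 for Kif21b, -0.438 for Cenpb and -0.428 for Ccnd3, and CV − ENR -0.0728 for Ncaph2 and -0.0162 for the lesser Kif21a transcript. EN − ENR of Cenpb was -0.0734 with the higher count minimum, -0.0871 on log2(TPM + 1) and -0.0842 on log2(TPM + 5), and that of Ccnd3 was -0.0600 and -0.0425 on these TPM scales. DESeq2 gave 0.0296 for Kif2a in EN − ENR and -0.00792 for Ncaph2 in CV − ENR, which was -0.00381 with the higher count minimum. The lesser Kif21a transcript was -0.0269 in CV − ENR with the replicate block. Leaving out 1 library in turn, EN − ENR ranged from -0.0889 to 0.0447 for Kif2a and -0.00440 to 0.176 for Ccnd3, and CV − ENR from -0.00842 to 0.0384 for Ncaph2 and -0.240 to 0.210 for the lesser Kif21a transcript. Of these values, edgeR, DESeq2 or limma gave an adjusted p under 0.01 for Cenpv and Kif2a in EN − ENR on the copy scale. Of the remaining values for single members, 1476 kept their direction and their side of the threshold when a setting was changed, 113 no longer passed and 7 newly passed, and 2305, 25 and 1 did so when a library was left out.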
